A study of Homo sapiens with 9 samples.

Results

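Kinesins are motor proteins that hydrolyse ATP to move along microtubules or to shorten microtubule ends. The family was taken as every gene whose symbol reads KIF followed by a number and an optional letter A, B or C, or KIFC followed by 1, 2 or 3, which gave 42 genes of the 26485 in the tables. They were divided by known role into 15 mitotic kinesins, 15 transport kinesins and 12 ciliary, signalling and other kinesins. The rule uses symbols alone and no measured value. It leaves out kinesins with other names, among them CENPE.

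Mitotic kinesins build the spindle, move and align chromosomes and organise the midzone at which a cell divides, and in cycling cells their transcripts mostly peak in G2 and M phase. Transport kinesins carry vesicles, organelles, RNA and ciliary cargo, most toward microtubule plus ends, and are expressed throughout the cell cycle. A smaller set works in cilia and centrioles, in Hedgehog and Wnt signalling, or controls microtubule growth at the cell edge.

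RNA was sequenced from MDA-MB-231, a human triple-negative breast cancer cell line grown in culture. The 9 libraries came from 3 groups of 3: cells that expressed a nonspecific shRNA (NS shRNA), ASAH1 shRNA #1 or ASAH1 shRNA #2. ASAH1 encodes acid ceramidase, the lysosomal enzyme that splits ceramide into sphingosine and a fatty acid, and the study sequenced RNA after its knockdown to look for the mechanism by which loss of ASAH1 slows the growth of these cells. All 3 groups express a hairpin in the same cell line, and the control is a single nonspecific hairpin. The 3 NS shRNA libraries serve both ASAH1 hairpins, so the comparisons with NS shRNA are not independent of each other.

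The libraries held between 23806003 and 49659106 reads on genes, with medians of 32929801 for NS shRNA, 33286543 for shRNA #1 and 39141363 for shRNA #2. ASAH1 itself stood at 4436, 4512 and 4518 normalized counts with NS shRNA against 1268, 1365 and 1348 with shRNA #1, and at 4787, 4898 and 4871 against 779.6, 807 and 762 with shRNA #2, log2 fold changes of -1.76 ± 0.05 (SE, adjusted p = 9.49e-09, limma) and -2.63 ± 0.06 (SE, adjusted p = 5.42e-10, limma). Of the markers of the line, VIM, CD44, MSN, AXL and CAV1 stood at 15490 normalized counts or more in every library, ZEB1 at 1667 to 3396, and ESR1, PGR and FOXA1 at no more than 5.83. ZEB1 was higher with both hairpins, at log2 fold changes of 0.55 ± 0.09 and 0.65 ± 0.10 (SE), but the 6 present markers went both ways. Of these, 3 were called higher and 2 lower with shRNA #1, and 2 higher and 3 lower with shRNA #2. Of all genes tested, 32.8% were higher and 33.3% lower with shRNA #1, and 33.5% and 33.4% with shRNA #2. VIM lay below its NS shRNA range in every knockdown library. GATA3, EPCAM and KRT5, usually low in this line, were measured at 60.2 to 1375. Of these 3, 1 was called higher and 2 lower with shRNA #1, and 2 higher and 0 lower with shRNA #2. Of 8 leukocyte and endothelial markers CD68 lay at 861 to 3228 and PECAM1 at 42.1 to 108, while the other 6 reached at most 11.2. CD68 was called higher with shRNA #1 at 0.29 ± 0.11 and lower with shRNA #2 at -1.38 ± 0.11, and PECAM1 was called lower with both, at -0.59 ± 0.19 and -0.91 ± 0.19. Their part in the results below was not tested. In RNA from whole cultures, fewer cells in a given cell cycle phase and less RNA per cell cannot be told apart.

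Promoter sequences are shown first for the mitotic members with the largest mean fall over both hairpins, because the transcription of many mitotic genes depends on 2 short elements near the start site, the cell cycle genes homology region, searched here as TTTGAA, and the CCAAT box, searched as CCAAT. Neither element contains the other. Only these exact letters were searched, and variant forms of the elements were not. A sequence without a match is thus not shown to lack the element. The 4 sequences below are the 250 bases before the RefSeq start in GRCh38.p14, written 5′ to 3′ on the strand of the gene, with matches to either element on either strand in capitals. KIF20A lies at chr5:138178719-138187723 on the plus strand and its sequence at chr5:138178862-138179111. KIF18B lies at chr17:44924709-44947773 on the minus strand and its sequence at chr17:44947774-44948023. KIF22 lies at chr16:29790727-29805385 on the plus strand and its sequence at chr16:29790501-29790750, and KIF15 lies at chr3:44761721-44873376 on the plus strand and its sequence at chr3:44761544-44761793. Gene spans are those of GENCODE, which can begin before or after the RefSeq start.
KIF20A: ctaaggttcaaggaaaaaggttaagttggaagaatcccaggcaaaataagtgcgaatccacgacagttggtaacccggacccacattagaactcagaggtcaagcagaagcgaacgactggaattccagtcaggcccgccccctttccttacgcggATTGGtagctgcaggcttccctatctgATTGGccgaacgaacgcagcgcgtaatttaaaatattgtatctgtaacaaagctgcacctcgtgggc
KIF18B: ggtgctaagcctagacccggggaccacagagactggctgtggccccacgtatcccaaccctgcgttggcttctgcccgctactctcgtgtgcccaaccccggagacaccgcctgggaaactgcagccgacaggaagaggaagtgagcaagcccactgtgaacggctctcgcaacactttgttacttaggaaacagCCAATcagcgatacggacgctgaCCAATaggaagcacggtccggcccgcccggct
KIF22: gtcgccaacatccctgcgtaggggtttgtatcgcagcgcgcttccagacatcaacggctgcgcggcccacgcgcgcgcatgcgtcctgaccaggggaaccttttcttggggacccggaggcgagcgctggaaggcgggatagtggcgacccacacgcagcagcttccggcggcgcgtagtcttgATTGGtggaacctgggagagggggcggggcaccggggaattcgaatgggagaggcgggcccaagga
KIF15: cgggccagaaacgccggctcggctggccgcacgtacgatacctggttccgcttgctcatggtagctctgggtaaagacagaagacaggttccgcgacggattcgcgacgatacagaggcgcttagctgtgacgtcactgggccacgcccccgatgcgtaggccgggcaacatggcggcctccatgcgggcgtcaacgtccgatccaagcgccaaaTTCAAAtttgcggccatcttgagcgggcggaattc

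KIF20A held the CCAAT letters on the opposite strand 94 and 67 bases before the start, and KIF18B held them on its own strand 55 and 32 bases before the start, with TTTGAA just past the start and outside the printed stretch. KIF22 had 1 CCAAT match, 66 bases before the start, and KIF15 had 1 TTTGAA match, 35 bases before it, both on the opposite strand. KIF11 (chr10:92574105-92655395, plus strand) is added because it held both elements in the printed stretch, at 28 and 53 bases before the start, and was chosen after the matches were seen. KIF17 (chr1:20664014-20718017, minus strand), the transport kinesin with the largest rise, is shown for contrast and held neither. Their sequences lie at chr10:92592880-92593129 and chr1:20718008-20718257.
KIF11: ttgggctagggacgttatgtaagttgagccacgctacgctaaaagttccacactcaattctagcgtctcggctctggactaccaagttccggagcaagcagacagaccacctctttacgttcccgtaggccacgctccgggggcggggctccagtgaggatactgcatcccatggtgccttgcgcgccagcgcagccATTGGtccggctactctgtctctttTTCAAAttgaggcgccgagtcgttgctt
KIF17: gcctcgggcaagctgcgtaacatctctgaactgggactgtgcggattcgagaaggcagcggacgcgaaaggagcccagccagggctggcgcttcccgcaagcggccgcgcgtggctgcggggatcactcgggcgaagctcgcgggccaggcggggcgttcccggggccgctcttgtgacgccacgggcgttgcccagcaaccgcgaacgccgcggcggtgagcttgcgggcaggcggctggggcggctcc

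Over windows of 300 bases that also take in the first 50 bases past the start, TTTGAA was found for 10 of the 15 mitotic kinesins (66.7%), CCAAT for 11 (73.3%) and both for 9 (60.0%). Of the 11 transport kinesins with a RefSeq window, 1 held TTTGAA (9.09%), 4 held CCAAT (36.4%) and 1, KIF5B, held both. Of the 8 other kinesins with a window, 0 held TTTGAA and 3 held CCAAT (37.5%). Across all 27305 genes with a window the shares were 18.2% for TTTGAA, 39.7% for CCAAT and 7.26% for both, and across the 35116 single windows 15.2%, 34.6% and 5.90%. The mitotic kinesins with a match to neither were KIF2A, KIF2B and KIF2C, the microtubule depolymerases. KIF4B is a processed copy of KIF4A, and their windows, which both held the pair, were not compared with each other. KIF13B, KIF5A, KIFC2, KIFC3, KIF19, KIF21B, KIF26B and KIF27 were not matched. A match describes letters in a window, and binding at these letters was not measured.

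MDA-MB-231 cells with NS shRNA had reads on most of the family, and the highest levels per transcript length belonged to transport and mitotic members alike. Per kb of the MANE Select transcript, KIFC3, a minus-end-directed motor of vesicles and cell junctions, led at 2509 ± 145 normalized counts per kb (SD, n = 3). KIF5B, the widely expressed heavy chain of conventional kinesin, followed at 2090 ± 157, then KIFC1, the minus-end-directed motor that focuses spindle poles, at 1544 ± 21.1, and KIF2C, a depolymerase of kinetochore microtubules, at 1436 ± 49.8. The ranges of these 4 did not overlap between neighbours. KIF22 (1237 ± 58.4) and KIF23 (1198 ± 18.1), and KIF23 and KIF1C (1182 ± 9.27), overlapped in their ranges, as did KIF4A (804 ± 43.4) with KIF11 (789 ± 49.1) and KIF11 with KIFC2 (786 ± 4.87). Every tested mitotic member lay between 293 (KIF14) and 1544 normalized counts per kb, whereas tested transport members ran from 4.81 (KIF5A) to 2509. Among tested members the mitotic list was thus the narrower of the 2 in level. This depended on the filter, as the untested mitotic members KIF4B and KIF2B lay at 0.97 and 0 normalized counts per kb.

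**Figure D1:**
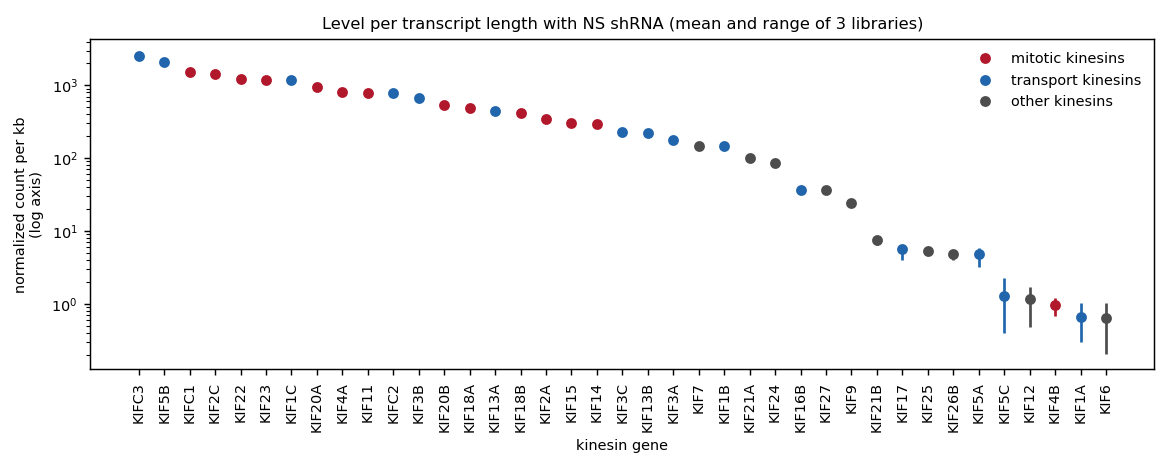
Level of each kinesin gene with NS shRNA, as normalized counts per kb of MANE Select transcript on a log axis, with points for the mean and lines for the range of 3 libraries, coloured by class. The mitotic genes other than KIF4B lie between 293 and 1544, while transport and other kinesins extend below 10. KIF2B, KIF19 and KIF26A, with an NS shRNA library at 0, are not drawn.

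8 members had a mean normalized count below 10 and were not tested. KIF2B had 0 reads in all 9 libraries, a count of 0 that allows up to 3 of the 320124978 reads of the study by counting error alone. KIF4B had 1 to 7 reads per library, KIF1A 2 to 9, KIF5C 3 to 15, KIF12 0 to 17, KIF6 0 to 9, and KIF19 and KIF26A 0 to 2. KIF1A, KIF5A and KIF5C are the neuronal members of their subfamilies, and only KIF5A of the 3 reached the level tested. Reads of KIF4A and of its near-identical copy KIF4B can be divided or lost in counting, so both genes' values are uncertain. The remaining 34 members, 13 mitotic, 13 transport and 8 other, were tested in each comparison.

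Of these 34, 6 were higher and 12 lower with shRNA #1 and 6 were higher and 16 lower with shRNA #2, at an adjusted p below 0.05. Among all genes tested, 32.8% were called higher and 33.3% lower with shRNA #1, and 33.5% higher and 33.4% lower with shRNA #2, so about 2 genes in 3 passed the test and a call by itself is common. The median log2 fold change of the family was -0.10 with shRNA #1 and -0.18 with shRNA #2, beside 0.00 and 0.01 over all genes tested. 9 members were lower with both hairpins, 2 (KIF2A and KIF17) were higher with both, 1 (KIF2C) was called in opposite directions, 6 were called with neither, and the other 16 with 1 hairpin alone. The shares of all genes with such pairs of calls were not counted, so these numbers have no background to be set against. The share of all genes whose groups do not overlap was not counted either, and some uncalled members were also without overlap. Fold changes are on the scale of log2(normalized count + 1), which understates the change of genes with few counts.

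**Figure D2:**
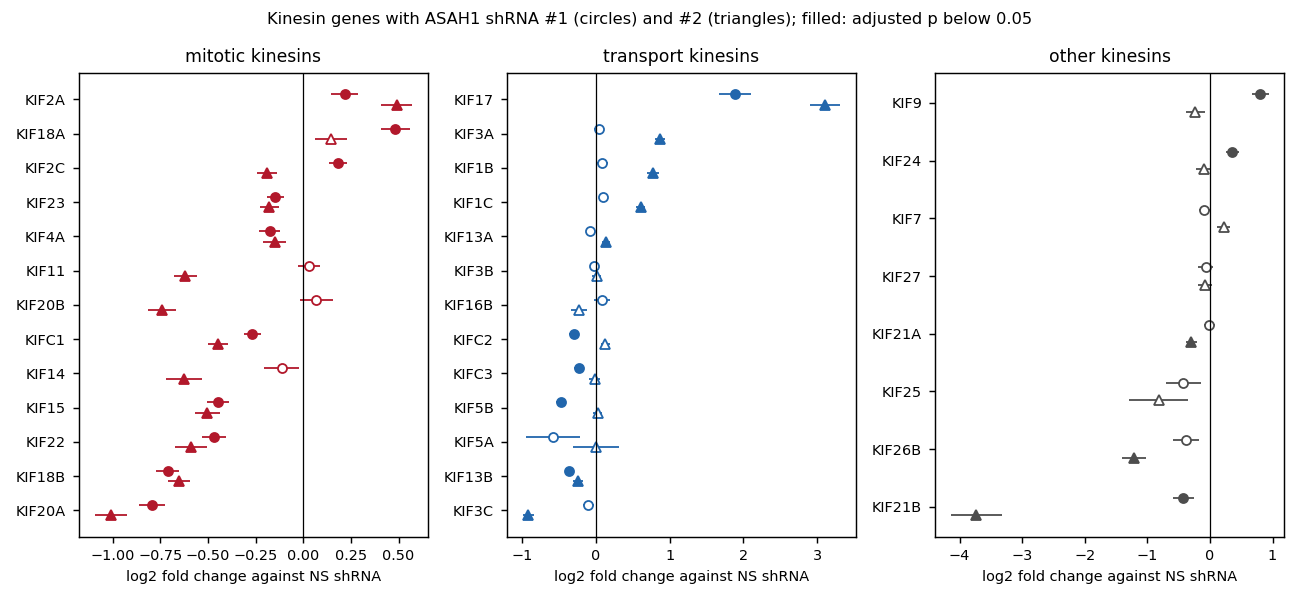
Log2 fold change against NS shRNA of the 34 tested kinesin genes with shRNA #1 (circles) and shRNA #2 (triangles), with bars for 1 SE and filled symbols for an adjusted p below 0.05. KIF20A is the lowest mitotic gene with both hairpins (-0.80 and -1.01) and KIF17 the highest transport gene (1.88 and 3.10). The 3 panels have different horizontal scales.

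Mitotic kinesins were mostly lower. With shRNA #1, 7 of 13 were lower (53.8% against the 33.3% of all genes), 3 higher and 3 not called, with a median log2 fold change of -0.15. With shRNA #2, 11 of 13 were lower (84.6% against 33.4%), 1 higher and 1 not called, with a median of -0.50. Of these calls, 5 of the 7 and 8 of the 11 held in every alternative run. The falls that some alternatives lost were those of KIF23, a centralspindlin motor (-0.15 and -0.18), and KIF4A, a chromosome-bound motor (-0.18 and -0.15), with both hairpins, and of KIF2C with shRNA #2. With shRNA #2 a second member, KIF18A, was called higher without NS shRNA replicate 3, which made 2 higher.

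KIF20A, which brings the chromosomal passenger complex to the central spindle for cytokinesis, fell most. Its normalized counts were 2936, 2772 and 3085 with NS shRNA and 1686, 1825 and 1559 with shRNA #1, and 3168, 3009 and 3326 and 1565, 1768 and 1398 in the comparison with shRNA #2. Every knockdown library lay below every NS shRNA library. The log2 fold changes were -0.80 ± 0.07 (SE, adjusted p = 7.15e-06) and -1.01 ± 0.08 (SE, adjusted p = 2.54e-06, both limma).

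KIF18B, a plus-end motor that limits the length of astral microtubules, followed. It stood at 1716, 1680.1 and 1695 with NS shRNA against 1113, 1005 and 993 with shRNA #1, and at 1852, 1824 and 1828 against 1157, 1182 and 1160.4 with shRNA #2. The groups did not overlap, and the log2 fold changes of -0.71 ± 0.06 (SE, adjusted p = 6.33e-06) and -0.65 ± 0.06 (SE, adjusted p = 3.58e-06, both limma) were close in size.

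KIF22, the chromokinesin that pushes chromosome arms away from the poles, was at 2689.7, 2586 and 2448 with NS shRNA and 1779.8, 1809 and 1999 with shRNA #1. With shRNA #2 it was at 1897, 1635 and 2035 against 2902, 2807 and 2639. No knockdown library reached the NS shRNA range, and the log2 fold changes were -0.47 ± 0.06 (SE, adjusted p = 0.000124) and -0.59 ± 0.08 (SE, adjusted p = 9.96e-05, both limma).

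KIF15, which helps KIF11 keep the spindle bipolar, was at 1411, 1461 and 1522 with NS shRNA and 1102, 1088 and 1027 with shRNA #1. With shRNA #2 it was at 1156, 1126 and 1066 against 1522, 1586 and 1642. Again no library of 1 group entered the range of the other, with log2 fold changes of -0.45 ± 0.06 (SE, adjusted p = 9.87e-05) and -0.50 ± 0.06 (SE, adjusted p = 5.48e-05, both limma). KIFC1 fell less, by log2 fold changes of -0.27 ± 0.04 and -0.45 ± 0.05, and the groups did not overlap with either hairpin.

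A second set of mitotic kinesins fell with shRNA #2 and was not called with shRNA #1. KIF11, the motor that pushes the spindle poles apart and the target of several mitotic inhibitors, stood at 3709, 3969.7 and 4201 with NS shRNA and 4223, 3996 and 3917 with shRNA #1, which overlapped (log2 fold change 0.03 ± 0.06, adjusted p = 0.643, limma). With shRNA #2 it stood at 2812, 2826 and 2706 against 4002, 4309 and 4529, without overlap (-0.62 ± 0.06, adjusted p = 7.85e-06, limma). The difference between the hairpins was itself called, at -0.66 ± 0.06 (SE, adjusted p = 1.22e-06, edgeR's quasi-likelihood test).

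KIF20B, which acts in the completion of cytokinesis, had the same order of values. It was at 3236, 3397 and 3796 with NS shRNA and 4033, 3688 and 3237 with shRNA #1 (log2 fold change 0.07 ± 0.09, adjusted p = 0.501, limma), and at 2257, 2379.9 and 2101 with shRNA #2 against 3492, 3687 and 4092 (-0.74 ± 0.07, adjusted p = 8.54e-06, limma). The shRNA #2 libraries lay below every NS shRNA library, and shRNA #2 was lower than shRNA #1 by a log2 difference of -0.83 ± 0.08 (SE, adjusted p = 6.6e-06, edgeR).

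KIF14, a midbody motor that recruits citron kinase, was at 1875, 2091 and 2445 with NS shRNA and 2038, 2031 and 1830.5 with shRNA #1, which overlapped (log2 fold change -0.11 ± 0.09, adjusted p = 0.301, limma). It was at 1446, 1589.9 and 1429 with shRNA #2 against 2024, 2270.2 and 2636 (-0.63 ± 0.09, adjusted p = 0.000152, limma), and the difference between the hairpins was -0.53 ± 0.09 (SE, adjusted p = 0.000308, edgeR). The NS shRNA libraries spread more for KIF14 than for KIF18B or KIF15.

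The depolymerases KIF2C and KIF2A, and KIF18A, were each called higher with at least 1 hairpin. KIF2C, which removes tubulin from kinetochore microtubules, stood at 3982, 4263 and 4079.9 with NS shRNA and 4590.4, 4666 and 4731 with shRNA #1, and at 4297, 4628 and 4399 against 3828, 3884 and 3947 with shRNA #2. All shRNA #1 libraries lay above NS shRNA and all shRNA #2 libraries below it, with log2 fold changes of 0.18 ± 0.05 (SE, adjusted p = 0.00599) and -0.19 ± 0.05 (SE, adjusted p = 0.00872, both limma), and shRNA #2 was lower than shRNA #1 by -0.39 ± 0.05 (SE, adjusted p = 2.05e-05, edgeR). With NS shRNA replicate 2 left out, the fall with shRNA #2 no longer passed (adjusted p = 0.0535, limma).

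KIF2A, a depolymerase of spindle poles, was higher with both hairpins, at 0.22 ± 0.07 and 0.49 ± 0.08 on the log2 scale, although the first of these was lost in some alternatives, among them leaving out NS shRNA replicate 1 (adjusted p = 0.0527, limma). KIF18A, which aligns chromosomes by damping the movement of kinetochore microtubules, rose with shRNA #1 from 1681 ± 164 to 2346 ± 132 normalized counts (SD, n = 3) and was 0.14 ± 0.08 higher on the log2 scale with shRNA #2, which did not pass (adjusted p = 0.145, limma).

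**Figure D3:**
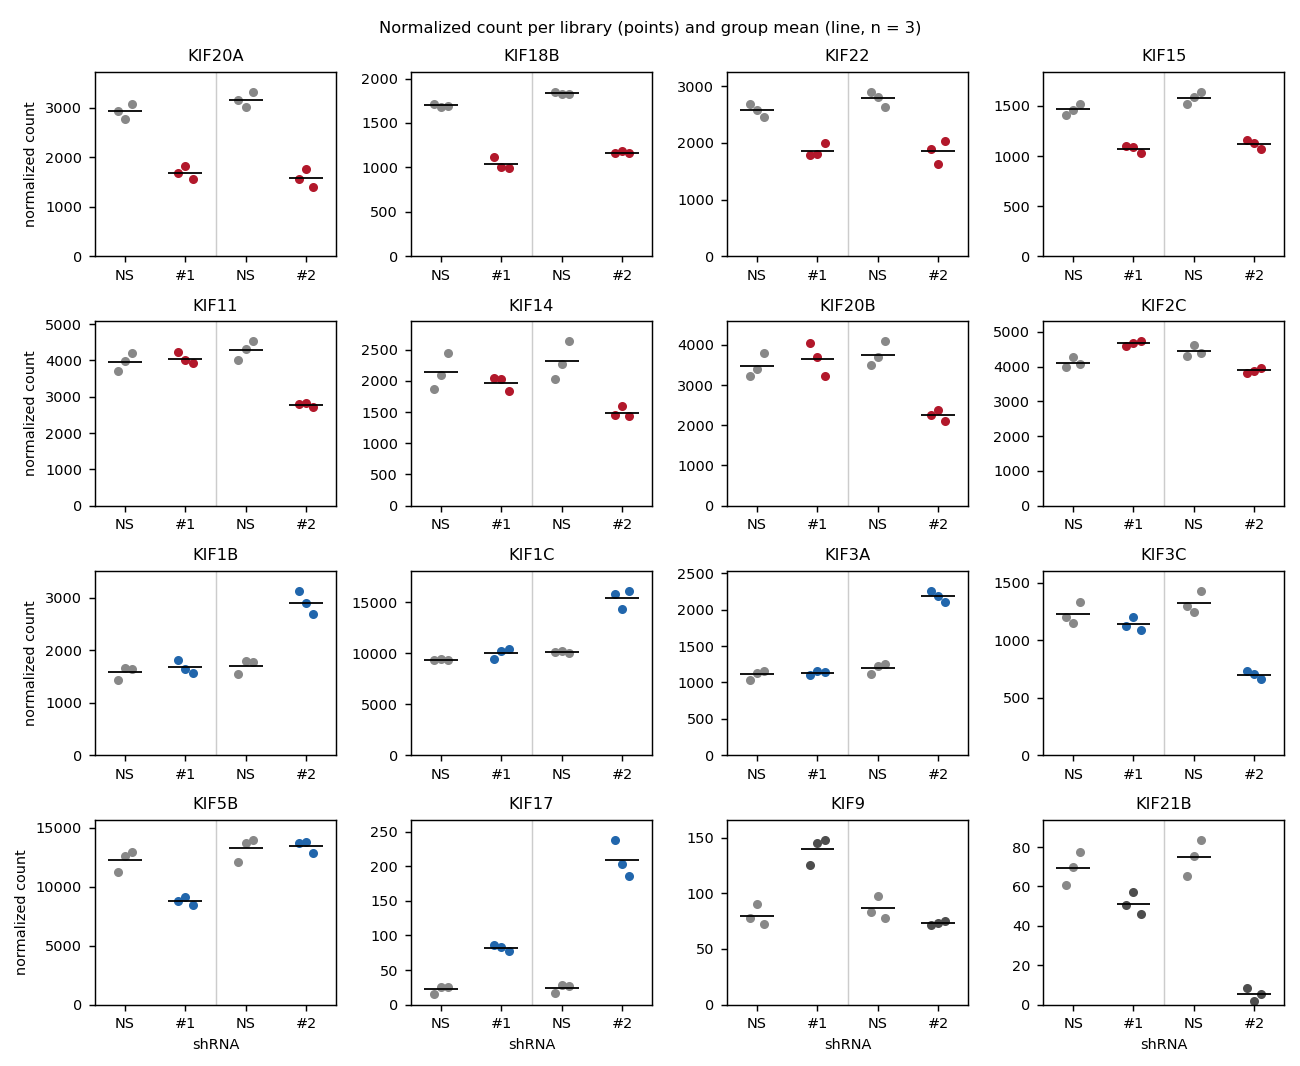
Normalized count in each library (points) with the group mean (line, n = 3) for 16 kinesin genes, with the comparison with shRNA #1 on the left of each panel and that with shRNA #2 on the right, each from its own table and from 0 upward. KIF20A, KIF18B, KIF22 and KIF15 lie below NS shRNA with both hairpins, while KIF11, KIF14 and KIF20B do so with shRNA #2, and KIF3A and KIF3C move in opposite directions with shRNA #2.

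Transport kinesins changed in both directions, and differently with the 2 hairpins. With shRNA #1, 1 of 13 was higher, 4 were lower and 8 not called, shares of 7.69% and 30.8% beside 32.8% and 33.3% of all genes, with a median of -0.08. Without shRNA #1 replicate 1, KIF1C was also called and the number higher was 2. With shRNA #2, 5 were higher (38.5% against 33.5%), 2 lower (15.4% against 33.4%) and 6 not called, with a median of 0.02. These shares were at or below those of all genes, apart from the 5 that were higher.

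KIF17, a homodimeric motor of cilia and dendrites, had the largest rise of the family from a low level. It was at 15.7, 25.5 and 24.9 normalized counts with NS shRNA against 85.6, 82.7 and 77.8 with shRNA #1, and at 16.9, 27.7 and 26.9 against 238, 203 and 186 with shRNA #2, from 15 to 27 reads with NS shRNA. Neither knockdown group overlapped NS shRNA, with log2 fold changes of 1.88 ± 0.22 (SE, adjusted p = 4.8e-05) and 3.10 ± 0.21 (SE, adjusted p = 5.81e-07, both limma), and shRNA #2 was higher than shRNA #1 by 1.22 ± 0.15 (SE, adjusted p = 3.16e-05, edgeR). Even with shRNA #2 its level was 52.9 normalized counts per kb, below the 347 of KIF3A.

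The kinesin-2 motors, which carry intraflagellar and vesicle cargo as a pair of heavy chains with the accessory subunit KIFAP3, did not move as a unit. KIF3A, the shared heavy chain, was at 1039, 1129.6 and 1158 with NS shRNA and 1109, 1157 and 1142 with shRNA #1 (log2 fold change 0.04 ± 0.06, adjusted p = 0.622, limma) but at 2263, 2193 and 2107 with shRNA #2 against 1121, 1226 and 1248 (0.87 ± 0.07, adjusted p = 1.33e-06, limma). The shRNA #2 libraries all lay above NS shRNA, and the hairpins differed by 0.82 ± 0.06 (SE, adjusted p = 2.71e-07, edgeR).

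KIF3C, an alternative partner of KIF3A, went the other way. It was at 1200.4, 1146 and 1329 with NS shRNA and 1127, 1205 and 1091 with shRNA #1 (log2 fold change -0.10 ± 0.07, adjusted p = 0.233, limma), and at 732, 702 and 666 with shRNA #2 against 1295, 1244 and 1432 (-0.92 ± 0.08, adjusted p = 2.46e-06, limma). The shRNA #2 libraries all lay below NS shRNA, and the difference from shRNA #1 was -0.83 ± 0.07 (SE, adjusted p = 1.15e-06, edgeR). KIF3B, the usual partner of KIF3A, was called in no comparison, with log2 fold changes of -0.03 ± 0.05 and 0.01 ± 0.06, and KIFAP3 was higher with both hairpins, at 0.57 ± 0.07 and 0.51 ± 0.08.

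The kinesin-3 motors KIF1B and KIF1C rose with shRNA #2. KIF1B, a carrier of mitochondria and synaptic vesicle precursors, was at 1425, 1655 and 1644 with NS shRNA and 1805, 1643 and 1565 with shRNA #1 (log2 fold change 0.09 ± 0.08, adjusted p = 0.346, limma), and at 3134, 2899 and 2682 with shRNA #2 against 1538, 1796 and 1773 (0.77 ± 0.08, adjusted p = 1.19e-05, limma). The rise was clear of the NS shRNA range in all 3 libraries.

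KIF1C, which carries vesicles and RNA to cell protrusions, was at 9334, 9441 and 9300.1 and 9426, 10171 and 10380.3 with NS shRNA and shRNA #1, and at 10072, 10248 and 10027 and 15828, 14312 and 16125 with NS shRNA and shRNA #2 (log2 fold changes 0.09 ± 0.05, adjusted p = 0.112, and 0.61 ± 0.06, adjusted p = 5.49e-06, limma). As shRNA #2 lay above shRNA #1 by 0.67 ± 0.08 for KIF1B (adjusted p = 1.8e-05) and 0.50 ± 0.05 for KIF1C (adjusted p = 8.75e-06, both edgeR), both genes differed between the hairpins. Of the other kinesin-3 members, KIF13B was lower with both (-0.36 ± 0.06 and -0.24 ± 0.07), KIF13A was called higher with shRNA #2 at 0.14 ± 0.06 (adjusted p = 0.0443, limma), a call lost in several alternatives, and KIF16B, an endosome motor, was not called against NS shRNA.

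KIF5B fell with shRNA #1 and was not called with shRNA #2. Its values are given by library after they were seen, as its fold changes were below 0.5. It was at 11215, 12617 and 12949 with NS shRNA and 8762, 9102 and 8454 with shRNA #1, without overlap, and at 12102, 13695 and 13961 against 13727, 13799.5 and 12861 with shRNA #2, within the NS shRNA range. The log2 fold changes were -0.48 ± 0.06 (SE, adjusted p = 8.38e-05) and 0.02 ± 0.06 (SE, adjusted p = 0.748, both limma), and the hairpins differed by 0.49 ± 0.06 (SE, adjusted p = 1.67e-05, edgeR). KIFC2 was likewise lower with shRNA #1 (-0.30 ± 0.06) and not called with shRNA #2 (0.13 ± 0.06). KIFC3 was called lower with shRNA #1 at -0.23 ± 0.06, a call lost without NS shRNA replicate 2 (adjusted p = 0.0545, limma).

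Between the hairpins, 10 members were higher and 14 lower with shRNA #2 than with shRNA #1, beside 31.4% higher and 32.6% lower of all genes. Mitotic kinesins gave 1 higher and 7 lower of 13 with a median log2 difference of -0.19, and transport kinesins 8 higher and 2 lower with a median of 0.42, while the median of all genes was -0.01. The number of transport members lower was 1 without shRNA #1 replicate 2 or shRNA #2 replicate 3, since KIF16B was then not called. Of the 7 mitotic members lower, 6 held in every alternative, and of the 8 transport members higher, 7 did. The call of KIF20A as lower and that of KIFC3 as higher were each lost in 6 of 15 alternatives.

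Averaged over each list, the log2 level of the 13 tested mitotic kinesins relative to the NS shRNA mean was -0.20 to -0.14 in the shRNA #1 libraries and -0.43 to -0.36 in the shRNA #2 libraries, with NS shRNA between -0.06 and 0.06. For the 13 transport kinesins it was -0.04 to 0.03 and 0.29 to 0.35. Transport minus mitotic was thus 0.10 to 0.24 with shRNA #1 and 0.64 to 0.77 with shRNA #2. Because KIF17 weighs heavily in this mean, it was also computed without that gene, a choice made after the values were seen. The transport level was then -0.20 to -0.11 with shRNA #1, overlapping the mitotic range, and 0.06 to 0.12 with shRNA #2, above it. Without KIF17 the 2 lists thus differed with shRNA #2 and overlapped with shRNA #1.

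**Figure D4:**
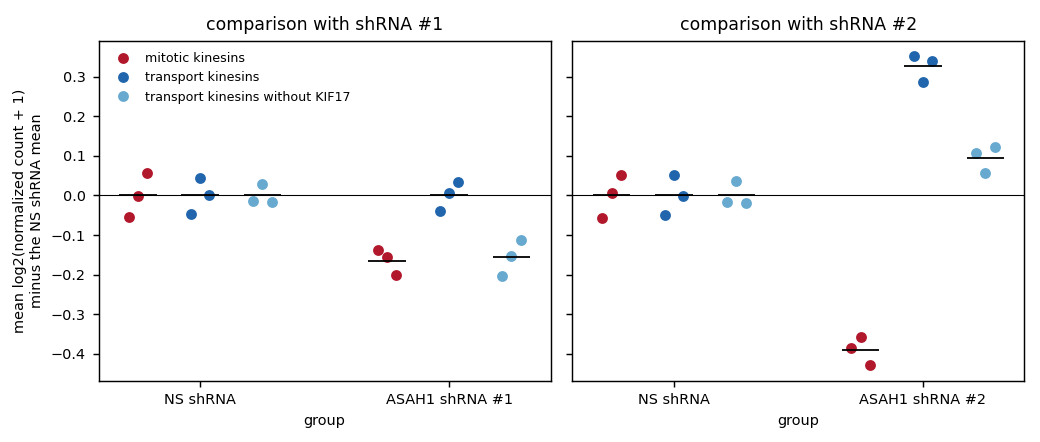
Mean of log2(normalized count + 1) over the 13 mitotic, the 13 transport and the transport kinesins without KIF17, minus the NS shRNA mean, in each library (points, with group means as lines, n = 3). With shRNA #2 the mitotic libraries lie at -0.43 to -0.36 and transport without KIF17 at 0.06 to 0.12, while with shRNA #1 these lists overlap.

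Of the 8 tested kinesins with other roles, 2 were higher and 1 lower with shRNA #1 and 0 higher and 3 lower with shRNA #2. These are shares of 25.0% and 12.5% with shRNA #1, beside 32.8% and 33.3% of all genes, and of 0% and 37.5% with shRNA #2, beside 33.5% and 33.4%, so no share was far above that of all genes. The 1 lower with shRNA #1, KIF21B, was lost without NS shRNA replicate 2 or 3 or shRNA #1 replicate 1 or 3, which left 0, and without shRNA #2 replicate 2 KIF7 was called higher with shRNA #2, which made 1. KIF9, an axonemal motor of low level here, was at 77.4, 90.3 and 72.0 with NS shRNA and 126, 145 and 148 with shRNA #1, without overlap (log2 fold change 0.80 ± 0.13, adjusted p = 0.000573, limma). With shRNA #2 it was at 71.2, 72.9 and 75.2 against 83.6, 98 and 77.6 (-0.23 ± 0.15, adjusted p = 0.198, limma). These groups did not overlap either, although the gene was not called. Between the hairpins, shRNA #2 was lower than shRNA #1 by -1.06 ± 0.14 (SE, adjusted p = 3.8e-05, edgeR). KIF24, a centriolar depolymerase that restrains cilium growth, was higher with shRNA #1 at 0.36 ± 0.10 (adjusted p = 0.00932, limma) and not called with shRNA #2.

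KIF21B, which pauses microtubule growth and is best known from neurons and lymphocytes, had the largest fall of the family and is given in full after its values were seen, as its mean was below 100. It was at 65.5, 75.6 and 83.6 normalized counts with NS shRNA and 8.63, 1.94 and 5.43 with shRNA #2, the last 3 from 8, 2 and 7 reads (log2 fold change -3.74 ± 0.41, adjusted p = 1.61e-05, limma). With shRNA #1 it was at 50.8, 57.0 and 46.1 against 60.7, 69.7 and 77.6, called at -0.42 ± 0.16 (adjusted p = 0.0438, limma) but lost in several alternatives, among them edgeR on the recovered reads (adjusted p = 0.0544). The hairpins differed by -3.39 ± 0.32 (SE, adjusted p = 3.47e-06, edgeR).

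KIF26B, a kinesin of noncanonical Wnt signalling, was also lower with shRNA #2, at -1.21 ± 0.19 (adjusted p = 0.000249, limma), with means of 71.5 ± 11.1 and 30.1 ± 0.957 normalized counts (SD, n = 3). KIF21A, the cortical relative of KIF21B, was lower by -0.30 ± 0.08. KIF7, the Hedgehog pathway kinesin, KIF27 and KIF25 were not called with either hairpin.

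Genes that work with the motors were read as 4 further lists. Of 16 mitotic partners of kinesins, 3 were higher and 10 lower with shRNA #1 and 0 higher and 14 lower with shRNA #2, with medians of -0.24 and -0.44. The shares lower were 62.5% and 87.5%, beside 33.3% and 33.4% of all genes, and the shares higher 18.8% and 0%, beside 32.8% and 33.5%. INCENP, the scaffold of the chromosomal passenger complex that KIF20A transports, was at -0.71 ± 0.06 and -0.51 ± 0.08, and NUMA1, which gathers microtubule minus ends at the poles, at -0.65 ± 0.07 and -0.64 ± 0.07. Other members of that complex differed. BIRC5 was lower with both hairpins (-0.47 ± 0.07 and -0.43 ± 0.07). AURKB was lower with shRNA #2 alone (0.02 ± 0.06 and -0.45 ± 0.06), and CDCA8 was higher with shRNA #1 alone (0.38 ± 0.06 and 0.09 ± 0.08). Of 23 mitotic genes without a motor, 14 and 15 were lower (60.9% and 65.2%) and 4 and 4 higher (17.4% each), with CCNB2, a mitotic cyclin, at -0.63 ± 0.06 and -0.91 ± 0.06 and CCNA2, the S and G2 phase cyclin, at -0.62 ± 0.06 and -0.60 ± 0.06. CDC20 was among those higher with both, at 0.31 ± 0.06 and 0.49 ± 0.06. Falls outnumbered rises in both lists with both hairpins, as they did among the mitotic kinesins.

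Of 26 tested kinesin light chains and cargo adaptors, 10 were higher and 9 lower with shRNA #1 and 5 higher and 11 lower with shRNA #2, and of 20 tested subunits of cytoplasmic dynein and dynactin, the opposing minus-end motor, 3 and 5 were higher and 1 and 8 lower. The light chains and adaptors thus had 38.5% higher and 34.6% lower with shRNA #1, near the 32.8% and 33.3% of all genes, and 19.2% and 42.3% with shRNA #2, beside 33.5% and 33.4%. Dynein and dynactin had 15.0% higher and 5.0% lower with shRNA #1, both below all genes, and 25.0% and 40.0% with shRNA #2. SNAPIN, an adaptor of lysosomes and synaptic vesicles, was lower at -0.80 ± 0.06 and -1.13 ± 0.08. DYNC1LI1, a dynein light intermediate chain that binds cargo adaptors, was higher at 0.73 ± 0.05 and 0.68 ± 0.06, and ACTR1A, the filament-forming subunit of dynactin, was lower at -0.54 ± 0.07 and -0.88 ± 0.08. The medians of these lists were -0.03 and -0.17 for the light chains and adaptors and -0.03 and -0.07 for dynein and dynactin.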

How the data were processed

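RNA of 9 libraries, 3 per group, was sequenced as strand-specific single-end reads, from oligo-dT purified mRNA by the extract protocol and the methods, although the series' design text names depletion of ribosomal RNA. The paper's methods describe 2 routes for these reads, and 1 of them used Bowtie2, RSEM, TMM scaling and edgeR. The other was taken here as the source of the deposited values. It used Trimmomatic 0.36 for trimming, STAR 2.7.1a for alignment to hg38, htseq-count with its reverse-strand setting and UCSC gene models for counting, and DESeq2 1.28 for normalization. The 2 deposited tables, 1 for each hairpin with NS shRNA, hold these normalized counts, a signal in reads divided by a size factor, for 26485 genes. Their columns of mean, log2 fold change, standard error, test statistic and p-values, the authors' own comparison, were not used. The labels give 3 biological replicates per group without saying what separated them, so p-values measure the spread between these libraries. No libraries were duplicates (chi-square per gene of 5.03 to 21.9 between replicates).

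Each value was a whole multiple of what 1 read is worth in its library (100% of values within 0.001), so reads were recovered, and the NS shRNA reads were identical in both tables. As the tables were normalized separately, levels are compared only within a table. Genes averaging 10 or more normalized counts over a table's 6 libraries were tested by limma 3.58.1 with an intensity trend on log2(normalized count + 1), and shRNA #2 against shRNA #1 by the quasi-likelihood test of edgeR 4.0.16 with TMM scaling on recovered reads of all 9 libraries, in R 4.3.3, both with Benjamini-Hochberg adjustment over all genes tested and a threshold of 0.05. The SEs printed for edgeR are the absolute log2 fold change divided by the square root of the test's F statistic, so they differ in kind from those of limma. With edgeR on recovered reads, 9465 genes were called with shRNA #1 and 9547 with shRNA #2, against 9479 and 9538 by limma. The fits were also run on simulated counts in which few genes changed. In these data most genes tested were called, so that run does not check the error rate here. Alternatives were other pseudocounts (0.1 and 5), filters (none, 50), no trend, upper quartile scaling, edgeR, DESeq2 1.42.0, 1 fit of all 9 libraries, a replicate block and leaving out each library.

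Members and gene lists were chosen with earlier results of these data known. Per-library values are given for members with an adjusted p below 0.05, an absolute log2 fold change of at least 0.5 and a mean of at least 100 in either comparison, or with opposite calls, and for KIF5B and KIF21B as exceptions. Genes of other lists are named where called at 0.5 or more in both, at most 4 per list. CENPE, AURKB, BIRC5, CDCA8 and CDC20 are named as well, after their values were seen. Of the genes in those lists, 5 were matched through RefSeq synonyms. Transcript lengths are those of MANE Select in GENCODE. Tables were handled with Python 3.11.15 and pandas 2.3.3, and figures drawn with matplotlib 3.10.9.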

Additional observations from a re-analysis of the deposited data

Results flagged for a closer look

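KIF2C, a depolymerase of kinetochore microtubules, was called in opposite directions against NS shRNA with the 2 hairpins, higher with shRNA #1 and lower with shRNA #2, and the difference itself was tested, at a log2 value of -0.39 for shRNA #2 against shRNA #1 (adjusted p = 2.05e-05, edgeR's quasi-likelihood test). Single outlying libraries were not looked for by the gap between values, which needs at least 4 libraries in a group.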

How the results depend on the processing

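Of 64 calls on members over the 3 comparisons, 51 held in every alternative and 13 were lost in at least 1, and no called member changed direction. Leaving out 1 library moved 6 counts by more than 1.5 times: transport kinesins higher with shRNA #1 ranged from 1 to 2, mitotic kinesins higher with shRNA #2 from 1 to 2, transport kinesins lower with shRNA #2 against shRNA #1 from 1 to 2, and, of the other kinesins, those lower with shRNA #1 (KIF21B), higher with shRNA #2 and higher with shRNA #2 against shRNA #1 (KIF7) each from 0 to 1. The other kinesins lower with shRNA #1 were 2 without the trend and 0 with edgeR, DESeq2, 1 fit of all 9 libraries or the replicate block, those higher with shRNA #2 were 1 with no filter, and those higher between the hairpins were 0 with upper quartile scaling. Same-numbered replicates did not deviate together in the comparisons with NS shRNA (correlations of -0.27 to -0.13 with shRNA #1 and -0.32 to -0.10 with shRNA #2), while between the hairpins they were weakly positive (0.05, 0.09 and 0.20) with 2 of the 3 at or under 0.1, and the numbers were not treated as pairs. With the replicate number as a block, 5 members were higher and 9 lower with shRNA #1, 5 and 13 with shRNA #2, and 9 and 14 for shRNA #2 against shRNA #1, and the mitotic kinesins lower were 5, 8 and 7. Without KIF17 the median log2 difference of transport kinesins between the hairpins was 0.31 in place of 0.42.

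Values that changed sign were all uncalled, and the cause was not tested. Upper quartile scaling gave 2.91e-05 for KIF21A with shRNA #1, -0.0377 for KIF3B, -0.0372 for KIF5A and -0.0205 for KIF5B with shRNA #2, and -0.0279 for KIF18B, -0.0495 for KIF3B and -0.0632 for KIF4A between the hairpins, where a mean filter of 50 gave -0.00108 for KIF4A. Leaving out 1 library gave ranges of -0.0143 to 0.0755 for KIF11, -0.00548 to 0.153 for KIF20B, -0.048 to 0.0666 for KIF21A, -0.149 to 0.0612 for KIF27, -0.00998 to 0.0679 for KIF3A and -0.0647 to 0.00832 for KIF3B with shRNA #1. With shRNA #2 the ranges were -0.187 to 0.0348 for KIF24, -0.148 to 0.0221 for KIF27, -0.0317 to 0.0444 for KIF3B, -0.256 to 0.184 for KIF5A, -0.0393 to 0.0638 for KIF5B and -0.0599 to 0.0551 for KIFC3. Between the hairpins they were -0.675 to 0.16 for KIF25, -0.142 to 0.0735 for KIF27, -0.0145 to 0.0581 for KIF3B and -0.00126 to 0.0421 for KIF4A. The largest standard errors among members were those of KIF25 (0.46) and KIF21B (0.41) with shRNA #2 in limma and of KIF25 (0.41) and KIF5A (0.38) between the hairpins in edgeR. All had few reads. Those between the hairpins were derived from edgeR's F statistic and differ in kind from those of limma.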
